A study of Bos taurus with 30 samples.

Results

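Bovine embryonic stem cells (ESC) had 78943 regions of accessible chromatin, and 30430 of them (38.5%) overlapped no accessible region of GV oocytes, 2-, 4- or 8-cell embryos, morula or inner cell masses (ICM). These 30430 ESC-only regions are described here, out of 250139 regions found when the 7 control stages were merged. They were chosen because they overlapped no region of the other 6 stages, so that their number and this lack of overlap are a description and were not tested. A peak in a single library of another stage did not exclude a region. The number rests on the deeper ESC libraries: it was 28585 without ESC replicate 1, 9017 without replicate 2 and 10304 without replicate 3. Accessibility was measured by ATAC-seq, in which a transposase cuts and tags open DNA, and a peak is a stretch where tags exceed the local background. A region of a stage is a stretch of merged peaks of its 3 replicate libraries that peaks of at least 2 replicates overlap.

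The ESC were lines derived from ICM and grown with FGF2 and the Wnt inhibitor IWR-1 on irradiated mouse fibroblast feeders. Oocytes and in vitro produced embryos were pooled for each library, with 4-cell embryos collected on day 2, 8-cell embryos on day 3, morulae on day 5 and ICM, freed of trophectoderm by immunosurgery, on day 7 after insemination. Transcription blocked embryos (TBE) were 2-, 4- and 8-cell embryos kept in 50 µg/ml α-amanitin, which blocks RNA polymerase II, from day 1. All 21 control libraries were without α-amanitin, and none of the 10 groups carried a labelled genetic change. How many ESC lines the 3 ESC libraries came from is not given in the labels, so that p-values measure the spread between libraries, which may be technical.

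Embryonic stem cells are kept in culture from the pluripotent cells of the ICM, and lines of different species or media resemble earlier or later states of the epiblast. Regulatory DNA is often opened in a cell-type-specific way, and enhancers away from gene starts usually differ more between cell types than promoters do. Wnt inhibition and FGF are used in bovine culture because they hold the cells in a self-renewing state. Genes beside the regions, markers of pluripotent or feeder cells and the base sequence of the regions were not analysed here, since coordinates are of the ARS-UCD1.2 build and no genome or annotation of that build was used. The identity of the cells was therefore not checked against marker genes, and the part of mouse feeder DNA in the ESC libraries was not tested.

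ESC libraries differed in depth. ESC replicate 1 had 39333 peaks, replicate 2 had 142643 and replicate 3 had 99432. Read numbers of single libraries were not used here. The background level of a library, which scales with its number of tags and was solved from its own peaks, was 0.175, 0.656 and 0.404 in ESC replicates 1, 2 and 3, between 0.438 and 1.06 in ICM, between 0.452 and 0.927 in morula, and between 0.806 and 1.31 in 8-cell embryos. ESC replicate 1 was thus the shallowest of these 12 libraries and had the fewest peaks of them. The part of depth in what counts as ESC-only was not tested beyond the alternatives given here.

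With all 3 ESC libraries, the share of regions found at no other stage was higher in ESC than at the other 6 stages. It was 38.5% in ESC, 28.3% in 8-cell embryos (34052 of 120364), 27.4% in morula (44199 of 161497), 18.9% in GV oocytes (6304 of 33347), 13.1% in ICM (11067 of 84396), 5.96% in 4-cell embryos (901 of 15117) and 0.443% in 2-cell embryos (3 of 677). ICM, from which the lines were derived, had a lower share than ESC in these lists. This order depended on the ESC libraries used. Without ESC replicate 2 the share was 26.6% in ESC, below 29.2% in 8-cell embryos and 29.8% in morula, and without replicate 3 it was 28.0%, below 29.1% and 29.6%. Without replicate 1 it was 38.1%, above 28.4% and 27.6%. With no list longer than its 39333 top peaks, the share was 46.4% in ESC, 36.8% in 8-cell embryos, 36.3% in GV oocytes, 26.6% in ICM and 20.8% in morula.

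The remaining 48513 ESC regions, called shared here, were spread over all degrees of sharing. Of all ESC regions, 11292 overlapped regions of 1 other stage, 10813 of 2, 9394 of 3, 7505 of 4, 9029 of 5 and 480 of all 6. Morula shared the most ESC regions (42703, 54.1%), followed by ICM (33896, 42.9%), 8-cell embryos (30782, 39.0%), GV oocytes (19786, 25.1%), 4-cell embryos (11454, 14.5%) and 2-cell embryos (524, 0.664%). Among ESC regions with a single partner stage, 6409 were shared with morula alone and 2136 with ICM alone, beside 1602 with 8-cell embryos, 1009 with GV oocytes, 135 with 4-cell embryos and 1 with 2-cell embryos. The longer lists of morula give it more chances to share a region, and depth and stage cannot be told apart in these counts.

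ESC-only regions were shorter and slightly weaker than shared ESC regions. Their median length was 425 bp (quartiles 304 and 757 bp, range 200 to 3109 bp), against 627 bp for shared regions (quartiles 356 and 1031 bp). Together they covered 17.4 Mb. Only 13.2% of them were longer than 1000 bp, against 26.7% of shared regions. Shorter length was not particular to ESC. Regions found at no other stage had a median of 449 bp in ICM, against 602 bp over all ICM regions. In morula it was 436 against 613 bp, and in 8-cell embryos 469 against 657 bp. Fold enrichment is the tag pileup of a peak over its local background, with 1 added to each, so that it also depends on the depth of a library. Its median at ESC-only regions was 4.19 in ESC replicate 1, 4.62 in replicate 2 and 3.94 in replicate 3. At shared regions the medians were 4.46, 4.93 and 4.44, higher in each of the 3 libraries. The highest values at ESC-only regions were 10.7, 14.3 and 13.2. These differences use the peaks that chose the regions and were not tested.

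The ESC-only share mostly fell as ESC peaks became stronger. Among peaks within ESC regions with a fold enrichment from 3 to 4, 33.5% lay in ESC-only regions in replicate 1, 43.5% in replicate 2 and 45.9% in replicate 3. Among peaks from 6 to 8 the shares were 17.4%, 33.0% and 24.5%. Strong peaks were thus less often ESC-only in all 3 libraries, but ESC-only regions reached into the top class: of peaks with a fold enrichment of 10 or more, 10 of 98, 381 of 1275 and 95 of 417 lay in them. The fall was not steady in replicates 2 and 3. Replicate 2 had 41.0% under a fold enrichment of 3, below its share from 3 to 4. Replicate 3 had 20.2% from 8 to 10 and 22.8% at 10 or more.

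**Figure D1:**
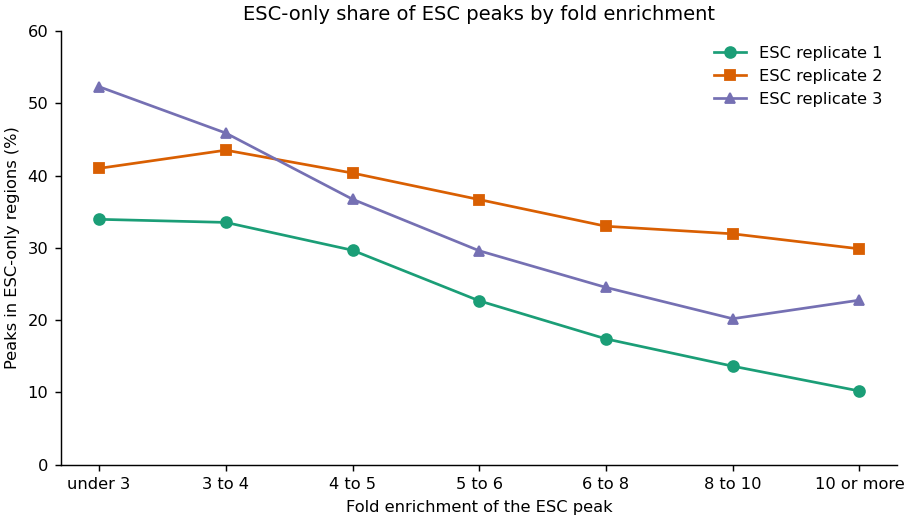
Percent of each ESC library's peaks within ESC regions that lie in ESC-only regions (y axis), by the fold enrichment of the peak (x axis), with 1 line for each ESC replicate. From a fold enrichment of 3 to 4 to one of 6 to 8 the share falls from 33.5% to 17.4% in replicate 1, from 43.5% to 33.0% in replicate 2 and from 45.9% to 24.5% in replicate 3.

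Most ESC-only regions rested on ESC replicates 2 and 3. A peak was present in replicates 2 and 3 alone at 19891 of them (65.4%), in replicates 1 and 2 alone at 1603, in replicates 1 and 3 alone at 255 and in all 3 at 8681 (28.5%). Over all ESC regions, 42.5% had peaks in all 3 libraries, and over shared regions 51.2%. Regions with peaks in all 3 libraries were the stronger ones, with a median mean fold enrichment of 5.02 against 4.04 for ESC-only regions with peaks in 2. Across ESC-only regions, fold enrichments correlated between replicates with a Spearman's rho of 0.611 for replicates 2 and 3 (28572 regions), 0.541 for replicates 1 and 2 (10284 regions) and 0.514 for replicates 1 and 3 (8936 regions). These are correlations across regions of the same libraries, which are not independent replicates.

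To ask whether ESC-only regions recur in a library that had no part in choosing them, each ESC library was held out in turn and regions were taken from both other libraries. In replicate 1, 30.4% of 28585 ESC-only regions had a peak, against 53.4% of the other ESC regions. In replicate 2 it was 97.2% of 9017 against 98.8%, and in replicate 3 84.4% of 10304 against 93.6%. ESC-only regions recurred less often in 3 of 3 libraries, by a mean of 11.3 percentage points (SD of the difference 10.8, n = 3), from 70.7% ± 35.4 against 81.9% ± 24.9. The exact two-sided permutation test by sign flips gave p = 0.25, the smallest that 3 pairs allow. The shares of single libraries spread more widely than the mean difference, while the SD of the paired differences was close to it. Recurrence followed the order of the background levels of the libraries.

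At other stages, peaks in single libraries were found at a part of the ESC-only regions. The rule lets a region stay if only 1 library of a stage has a peak there, or if 2 have peaks that do not overlap each other. Of the 30430 regions, 20087 (66.0%) had no peak in any of the 18 other control libraries, 7221 had a peak in 1 of them and 2344 in 2. Over all 27 non-ESC libraries, TBE included, 14684 (48.3%) had no peak. In morula, 1.51%, 12.5% and 2.78% of ESC-only regions had a peak in replicates 1, 2 and 3, and in ICM 1.71%, 3.12% and 6.88%. In both stages the highest value belonged to the library with the highest background level. In 8-cell embryos the values were 2.12%, 2.44% and 3.22%, the lowest of them in replicate 1, which had the highest background level (1.31) of that stage. In 4-cell embryos they were 2.87%, 1.27% and 0.605%, and in GV oocytes 1.74%, 1.96% and 2.25%. In 2-cell libraries at most 0.404% had a peak.

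**Figure D2:**
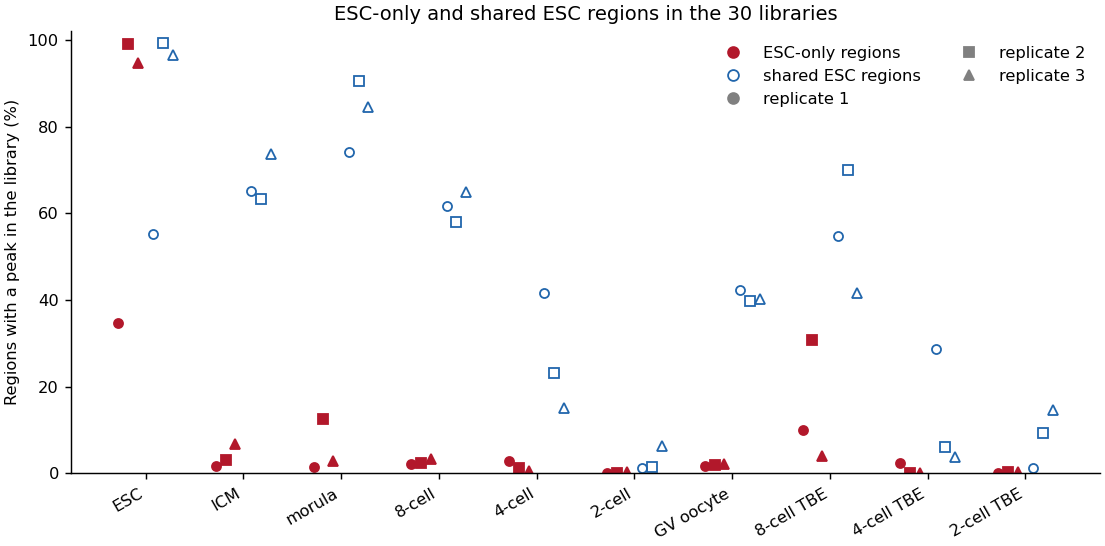
Percent of ESC-only regions (filled symbols) and of shared ESC regions (open symbols) with a peak in each of the 30 libraries (y axis), by group (x axis), with a symbol shape for each replicate. ESC-only regions lie at 34.6%, 99.2% and 94.7% in ESC and at or below 12.5% in all control libraries of other stages, while 8-cell TBE libraries reach 30.9%.

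Some ESC-only regions lay close to the limit of the rule. Coordinates are of ARS-UCD1.2 and count from 1. A region of another stage lay within 1000 bp of 3203 ESC-only regions, within 100 bp of 212 and within 10 bp of 22. The nearest, chr1:56223807-56224059, touched a region of another stage without sharing a base and had fold enrichments of 4.23 and 4.12 in ESC replicates 2 and 3 and no peak in replicate 1. Just outside, 18 ESC regions were left out for an overlap of at most 10 bp, among them chr13:15613334-15613836 with an overlap of 1 bp and fold enrichments of 3.47 and 3.51 in replicates 2 and 3. On the inside, chr1:156338662-156340139 was kept although 10 of the 27 non-ESC libraries had a peak there, with 3.48 and 3.43 in ESC replicates 2 and 3.

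The clearest ESC-only regions had peaks in all 3 ESC libraries and in none of the 27 other libraries, TBE included. This held for 4085 regions (13.4%). Named here are the 10 of them with the highest mean fold enrichment. The highest was chr11:40424892-40425269, 378 bp long, with fold enrichments of 9.02, 14.1 and 12.2 in ESC replicates 1, 2 and 3 (mean 11.8 ± 2.55, SD, n = 3). The second, chr4:29830121-29830586, had 9.26, 12.6 and 13.2 (mean 11.7 ± 2.11). The third, chr12:49847547-49848140, had 9.76, 14.1 and 10.5 (mean 11.4 ± 2.29). Replicate 1 was the lowest in each of these 3 regions, and their means differ by less than the spread between libraries.

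Next came chr6:41184411-41184831 with 9.63, 12.9 and 11.1, chr8:32173038-32173434 with 8.39, 13.1 and 11.9, and chr1:6013707-6014114 with 8.24, 12.8 and 12.4. The last 4 were chr9:83142676-83143079 (mean 11.0 ± 2.93), chr1:61775657-61776129 (mean 10.9 ± 1.69), chr20:46334342-46334705 (mean 10.9 ± 1.30) and chr12:66134972-66135384 (mean 10.9 ± 2.67). All 10 were between 364 and 594 bp long and lay on 8 chromosomes, apart from each other. Each stood apart from other ESC-only regions as well, with the next one between 15.99 and 83.5 kb away. The distance to the nearest region of another stage ranged from 0.583 kb for the region on chromosome 8 to 19.0 kb for chr1:6013707-6014114.

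ESC-only regions were spread over the whole genome. Of 2642 windows of 1 Mb on the autosomes and the X chromosome, 16 held none, and the median window held 11 (quartiles 7 and 15). The median gap between neighbouring ESC-only regions was 51109 bp (quartiles 21104 and 109186 bp), and the nearest region of any other stage was at a median of 4850 bp (quartiles 2068 and 10289 bp). Most regions stood alone: joined where at most 12.5 kb apart, 22009 (72.3%) had no neighbour, 6542 lay in pairs and 1437 in groups of 3. No group had more than 6.

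Of these largest groups there were 4, and none held a shared ESC region between its members. At chr15:82302596-82339787 (37.2 kb), 5 of 6 ESC-only regions had peaks in all 3 ESC libraries, with mean fold enrichments from 3.32 to 6.66. At chr7:72999136-73043288 (44.2 kb), none of the 6 had a peak in any non-ESC library, and their mean fold enrichments ran from 3.68 to 7.73. The other two were chr5:79890824-79933033, with 3 of 6 in all 3 ESC libraries, and chr8:86040374-86074340, with 1 of 6. Groups on chromosomes 15 and 5 thus recurred in the shallow replicate 1 (5 and 4 of their 6 regions), and those on chromosomes 7 and 8 did so less (2 and 1 of 6).

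In the densest windows most ESC regions were ESC-only. In chr7:67000001-68000000, 33 of 39 ESC regions (84.6%) were ESC-only, beside 4 ICM-only and 8 morula-only regions, which are the regions of those stages that overlap none of the others. In chr29:2000001-3000000 it was 30 of 34 (88.2%), beside 4 ICM-only and 11 morula-only regions. In the next windows by count, on chromosomes 21, 11 and 14, the share was 58%, 68.3% and 71.1%, against 38.5% over all ESC regions. Of the 33 regions in the window on chromosome 7, 20 had no peak in a non-ESC library, and 8 had peaks in all 3 ESC libraries. These windows were picked for their counts of ESC-only regions, which by itself raises the ESC-only share, and are a description.

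Chromosomes differed in their share of ESC-only regions. The share of ESC regions that were ESC-only was lowest on chromosomes 25 (218 of 1119, 19.5%), 19 (438 of 1963, 22.3%), 18 (629 of 2373, 26.5%) and 23 (452 of 1649, 27.4%). It was highest on chromosomes 20 (961 of 2043, 47.0%), 6 (1550 of 3408, 45.5%), 12 (1046 of 2337, 44.8%) and 1 (2064 of 4622, 44.7%). The density of ESC-only regions ran from 5.15 per Mb on chromosome 25 and 5.88 per Mb on the X chromosome to 14.1 per Mb on chromosome 27. Over all ESC regions, chromosome 25 had 26.4 per Mb and chromosome 27 had 32.5 per Mb, a smaller difference than that in ESC-only regions. On the X chromosome all ESC regions were sparse (16.5 per Mb), and 35.7% of them were ESC-only.

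This was compared with other stages over libraries. In each library of ESC, ICM, morula and 8-cell embryos, the peaks that overlapped no region of another stage were taken as its stage-only peaks, and the percent of them on each of 30 chromosomes was compared between the 3 ESC libraries and the 9 others (exact two-sided permutation test, Benjamini-Hochberg over 30 chromosomes). The share differed on 12 of 30 chromosomes (40%), lower in ESC on 5 (16.7%) and higher on 7 (23.3%). No chromosome passed without any 1 of the ESC replicates, a design of 2 libraries against 9 in which 11, 8 and 10 chromosomes had an unadjusted p under 0.05 without replicates 1, 2 and 3, and none passed with permutation within replicate numbers (14 at an unadjusted p under 0.05). It was lower on chromosomes 10, 13, 19, 23 and 25 and higher on chromosomes 4, 7, 8, 9, 14, 20 and 27. Shares on chromosomes add up to a fixed total, so that a lower share on some goes with a higher one on others. The tested peaks were themselves chosen by lack of overlap, with the same regions of other stages for all libraries of a stage. Their shares therefore also depend on where those regions lie, which the test cannot separate. Subtracting the share of all peaks, as below, does not remove this.

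On chromosome 25, ESC replicates 1, 2 and 3 had 0.778%, 0.716% and 0.883% of their stage-only peaks, and the 9 other libraries had between 1.59% and 2.38%. The groups did not overlap (mean 0.792% ± 0.0844, n = 3, against 1.85% ± 0.266, n = 9, exact permutation test, adjusted p = 0.0341). On chromosome 19 the ESC libraries had 1.49%, 1.44% and 1.67% and the others between 2.34% and 4.47%, again without overlap (mean 1.54% ± 0.122 against 2.86% ± 0.706, exact permutation test, n = 3 and 9, adjusted p = 0.0341). In the other direction, chromosome 8 had 5.15%, 5.08% and 4.89% in ESC and between 3.63% and 4.57% elsewhere (mean 5.04% ± 0.134 against 4.15% ± 0.323, exact permutation test, n = 3 and 9, adjusted p = 0.0341). Chromosome 7 had 5.01%, 4.70% and 4.74% in ESC and between 3.78% and 4.25% elsewhere, with the same adjusted p.

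Part of this was already present in the full peak lists. Among all peaks of a library, whatever their overlap, chromosome 25 took 1.43%, 1.15% and 1.43% in the ESC libraries and between 1.78% and 2.26% in the others. With the share of all peaks subtracted in each library, 7 of the 12 chromosomes still differed (4, 7, 8, 10, 19, 23 and 25), all 12 in the same direction. The calls did not hold with the tested lists cut to equal length: with 39333 top peaks, 0 of 30 chromosomes passed (10 at an unadjusted p under 0.05), although all 12 kept their direction. The tests take 9 libraries of 3 stages as separate libraries. In the exact permutation test against ICM alone (3 against 3, smallest p = 0.1) none could pass. On all 12 the ESC and ICM libraries did not overlap. The same held on most of the other chromosomes, such as 1, 2 and 6, so that this does not set the 12 apart.

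**Figure D3:**
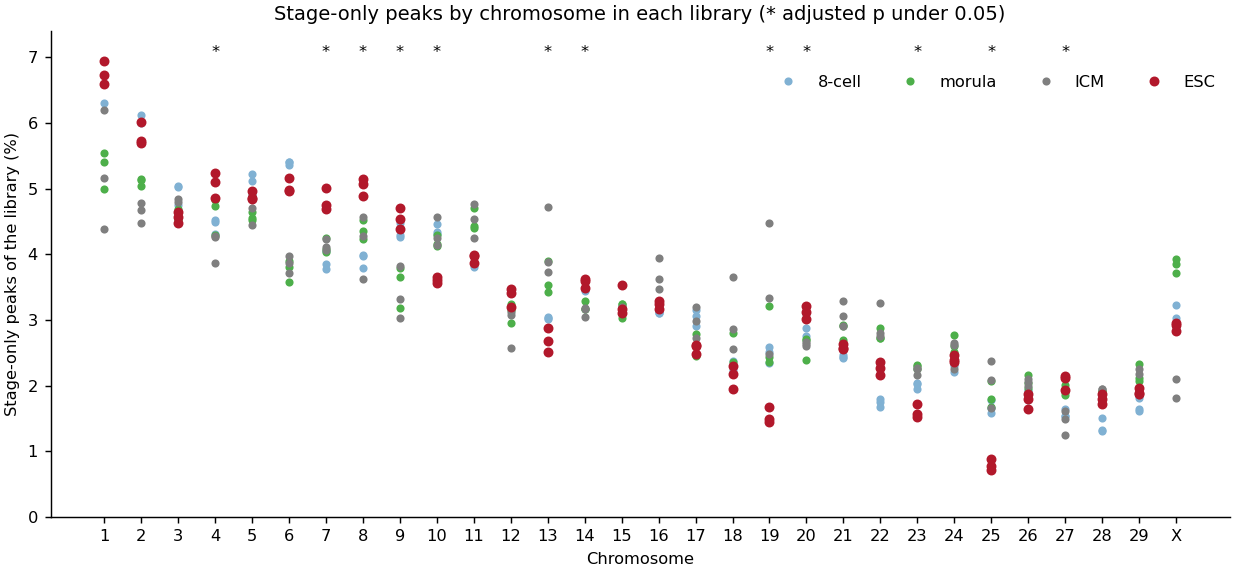
Percent of each library's stage-only peaks (y axis) on each chromosome (x axis), with 1 point for each of 3 libraries of ESC, ICM, morula and 8-cell embryos, and an asterisk where ESC differed from the other 9 libraries with an adjusted p under 0.05. The ESC libraries lie below all others on chromosomes 19 and 25 and above all others on chromosomes 7 and 8.

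Toward chromosome ends, 5.26% of autosomal ESC-only regions lay in the first 5 Mb of a chromosome and 5.35% in the last 5 Mb, stretches that make up 5.83% of autosomal length each. For shared ESC regions it was 5.12% and 7.00%, for ICM-only regions 4.53% and 5.76%, and for morula-only regions 4.58% and 7.74%. The far ends of chromosomes were thus not richer in ESC-only or in ICM-only regions, which was not tested. Of regions on unplaced scaffolds, 93 of 477 were ESC-only.

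TBE libraries had no part in the rule, and they were used to ask whether ESC-only regions were open in embryos whose transcription had been blocked. In 8-cell TBE, 9.90%, 30.9% and 3.95% of ESC-only regions had a peak in replicates 1, 2 and 3. In 4-cell TBE it was 2.34%, 0.102% and 0.138%, and in 2-cell TBE 0.0131%, 0.414% and 0.381%. The 8-cell TBE libraries stood above the others, and they also differed most from each other, with background levels of 1.24, 3.82 and 0.347 in the same order as their percentages. Peaks of 8-cell TBE replicate 2 covered 7.32% of the chromosomes and 20.6% of the bases of ESC-only regions, 2.82 times as much. In replicates 1 and 3 the ratios were 2.62 and 2.07. In the 2- and 4-cell TBE libraries the ratio ran from 0.470 to 2.08. In control libraries of other stages, which the rule uses, it ran from 0.236 to 1.78.

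ESC-only regions were compared with ICM-only and morula-only regions in the same 9 TBE libraries. The sets of regions were fixed, so that p-values here measure the spread between TBE libraries of 3 stages. They do not measure the spread between the ESC, ICM or morula libraries that chose the sets. On average 5.35% of ESC-only regions, 5.07% of ICM-only regions and 4.55% of morula-only regions had a peak in a TBE library. ESC-only regions were 0.278 percentage points above ICM-only regions (SD 0.464, n = 9, higher in 6 of 9 libraries), which did not pass the test (exact permutation test by sign flips, two-sided, p = 0.0898, adjusted p = 0.0898 over the 2 comparisons). The direction turned with the ESC libraries: without ESC replicate 2 the difference was -0.511 points and passed the test (same exact permutation test, n = 9, adjusted p = 0.00781), and without ESC replicate 3 it was -0.412 points (adjusted p = 0.0938, same exact test, n = 9). They were 0.799 points above morula-only regions (SD 1.43, higher in 8 of 9 libraries, exact permutation test, n = 9, p = 0.0195, adjusted p = 0.0391). Without 8-cell TBE replicate 2 this difference was 0.350 points (exact permutation test, n = 8, adjusted p = 0.0781), and without ESC replicate 2 it was 0.0226 points (adjusted p = 0.805, same exact test, n = 9).

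The counts for TBE regions, which need peaks of at least 2 TBE replicates, were as follows. An 8-cell TBE region overlapped 3118 ESC-only regions (10.2%), 10.3% of ICM-only regions, 8.93% of morula-only regions and 55.8% of shared ESC regions. Over all ESC regions it was 38.3%, a share that the rule itself lowers for ESC-only regions, since they overlap no region of control 8-cell embryos. A 4-cell TBE region overlapped 11 ESC-only, 5 ICM-only and 7 morula-only regions, against 4.25% of all ESC regions, and a 2-cell TBE region overlapped 3, 1 and 6, against 3.58%. The 3118 regions were longer than the rest, with a median of 510.5 bp against 417 bp, and had a lower median mean fold enrichment in ESC of 4.05 against 4.29.

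A peak in all 3 8-cell TBE libraries was present at 580 ESC-only regions (1.91%), at 1.93% of ICM-only and 1.60% of morula-only regions and at 24.2% of all ESC regions. Peaks in all 3 ESC libraries and in none of the 18 other control libraries were present at 5489 ESC-only regions (18.0%). Of the 580 regions, 30 met this. The one with the highest mean in TBE, picked after its values were seen, was chr7:98000053-98000448, with fold enrichments of 6.55, 4.78 and 3.796 in 8-cell TBE (mean 5.04 ± 1.40, SD, n = 3) and 7.70, 10.3 and 8.66 in ESC (mean 8.90 ± 1.34). The next, chr21:13324603-13324969, had 4.39, 4.22 and 4.98 in 8-cell TBE and 4.71, 7.78 and 6.99 in ESC. At these sites peaks were thus listed in ESC and in blocked 8-cell embryos but in no untreated embryo or oocyte library.

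Control and blocked embryos of 1 stage can be compared only if the control libraries of that stage have no part in the choice. ESC-only regions were therefore chosen again without the 8-cell stage, which gave 32032 regions. Of these, 5.42%, 5.37% and 6.99% had a peak in control 8-cell replicates 1, 2 and 3, and 10.5%, 31.6% and 4.43% in 8-cell TBE. Blocked embryos held both the 2 highest and the lowest of the 6 values. The means were 15.5% ± 14.2 and 5.92% ± 0.921 (SD, n = 3), a difference of 9.60 percentage points that was smaller than the spread between TBE libraries (exact two-sided permutation test, n = 3 and 3, p = 0.4, adjusted p = 0.75 over 3 stages). Without 8-cell TBE replicate 2, the library with the highest background level, the difference was 1.56 points.

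At the 4-cell stage, 3.22%, 1.60% and 0.792% of 30565 regions had a peak in control embryos and 2.47%, 0.121% and 0.144% in TBE (difference -0.958 points, exact permutation test, n = 3 and 3, p = 0.5, adjusted p = 0.75). At the 2-cell stage, 0.0263%, 0.0427% and 0.407% of 30431 regions had a peak in control embryos and 0.0131%, 0.414% and 0.381% in TBE (difference 0.111 points, exact permutation test, n = 3 and 3, p = 0.9, adjusted p = 0.9). The groups overlapped at all 3 stages, and an exact permutation test of 3 libraries against 3 cannot go below p = 0.1. Embryos of a collection were divided between control and α-amanitin culture, but the labels do not say that a replicate number marks a collection. If numbers are taken as pairs, the 4-cell value was lower in TBE in 3 of 3 pairs (exact permutation test by sign flips, p = 0.25, the smallest that 3 pairs allow). A difference between blocked and control embryos at ESC-only regions was thus not detectable with these libraries.

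**Figure D4:**
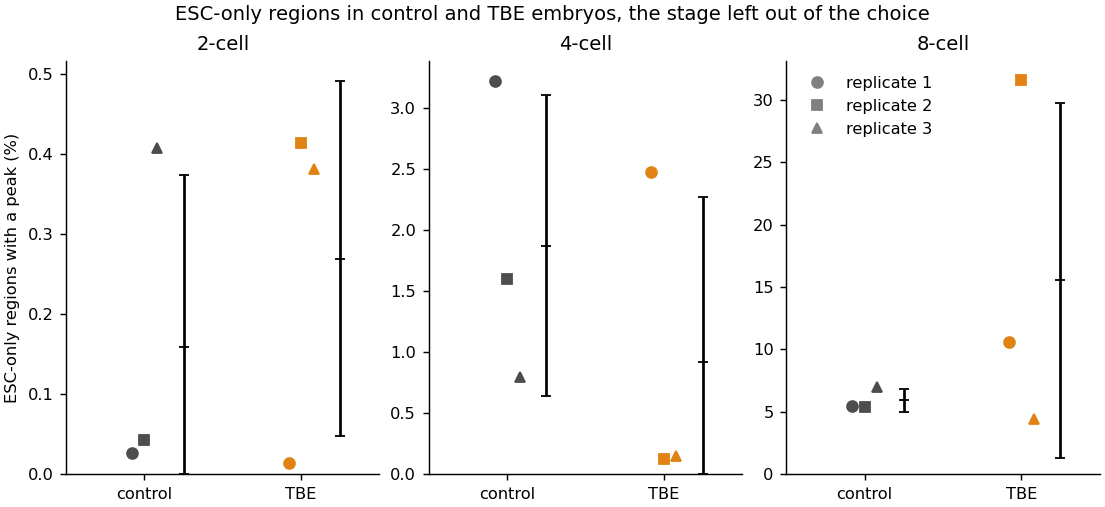
Percent of ESC-only regions with a peak (y axis) in control and TBE libraries (x axis) of the 2-, 4- and 8-cell stages, with regions chosen without the stage shown, a symbol for each replicate and a bar for mean and SD, cut at 0; each stage has its own scale. At the 8-cell stage the TBE libraries lie at 10.5%, 31.6% and 4.43% and the control libraries between 5.37% and 6.99%.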

How the data were processed

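The data were 30 broad peak lists from ATAC-seq, 3 replicates for each of 10 groups. Alignment by the authors was to ARS-UCD1.2 with BWA 0.7.17, followed by filtering with SAMtools 1.7 and peak calling with MACS2 2.1.1, per the submitters' processing notes and the study's methods. The authors deposited for each peak its fold enrichment and −log10 values of its p-value and q-value, averaged over the peak. Fold enrichment was read as the ratio of pileup to local background with 1 added to each. From these lists peaks were merged, overlapped (at least 1 bp) and counted with Python 3.11.15, numpy 2.4.6, pandas 2.3.3 and scipy 1.17.1. The fold enrichment of a region is that of the peak with most bases in it. Chromosome lengths were taken as the largest peak end. Background levels were solved from peaks of at most 260 bp that fit a whole-number pileup (tolerance 0.0002 on −log10 p). Interval functions, tested on simulated data, had 0 errors in 200 trials, and 4 of 4 simulated background levels were recovered. Reads per library were not used here, so no counting intervals are given.

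Groups followed the labels. Libraries were compared with exact permutation tests. The members were chosen, and the tests set, with earlier results of these data known. Tests by chromosome and with a stage left out were added after the lists had been seen. The 10 named regions are those with the largest mean fold enrichment in ESC among regions with peaks in all 3 ESC and none of 27 other libraries. Promoters, repeats, GC content, motifs, gene lists and cell type markers were not analysed here.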

Additional observations from a re-analysis of the deposited data

How the results depend on the processing

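Every setting named here is one that was run, and settings on the chromosome test, on a stage left out of the choice and on TBE libraries left out were chosen after seeing the data. The number of ESC-only regions (30430) was 15879 with −log10 q of at least 3, 66212 if peaks of any replicate made a region, 11553 if all 3 had to, 20087 with absence judged on any single library, 16413 in lists of equal length, and between 9017 and 28585 without 1 ESC replicate. Their percent (38.5%) was 44.9% with an overlap of 50%, 25.4% on single libraries, 46.4% with equal top peaks, and between 26.6% and 38.1% without 1 ESC replicate. Without ESC replicates 2 and 3 the number was 9017 and 10304, since both remaining libraries, of which 1 was the shallow replicate 1, must then have a peak.

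The difference between ESC-only and ICM-only regions in TBE libraries (0.278 points) passed the test with an overlap of 50% (0.344), turned to -0.300 where any replicate made a region and to -0.352 where all 3 had to, and ranged from -0.511 to 0.323 without 1 library, with -0.511 and -0.412 without ESC replicates 2 and 3, the former passing the test in the opposite direction (exact permutation test, adjusted p = 0.00781). The cause was not tested. Against morula-only regions (0.799 points) the call was lost with −log10 q of at least 3 (0.149), any replicate (0.449), all 3 replicates (0.437), equal top peaks (0.887) and the replicate block (adjusted p = 0.25, exact, the smallest that 3 numbers allow), and without 1 library the difference ranged from 0.0226 to 0.904. It was lost without ESC replicate 2 or 3, 2-cell TBE replicate 2, 4-cell TBE replicate 1 or 3, and each of the 3 8-cell TBE libraries. The held-out difference and those between TBE and control embryos kept their direction and passed no threshold in all settings run.

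Of 30 chromosomes, 12 differed; 0 did with equal top peaks (smallest adjusted p = 0.0682, exact, 10 at an unadjusted p under 0.05), 0 with the replicate block (smallest adjusted p = 0.067, exact, 14 at an unadjusted p under 0.05), 0 against ICM alone (0 unadjusted), 7 with the share of all peaks subtracted, and between 0 and 11 without 1 library. The 0 fell to leaving out any ESC replicate, with 11, 8 and 10 at an unadjusted p under 0.05 without replicates 1, 2 and 3, where an exact permutation test of 2 libraries against 9 cannot go below p = 0.0364. Whether replicate numbers pair the libraries was not settled. Over 250139 regions, deviations from group means correlated between -0.036 and 0.0518 in 30 pairs of the same number. Most of these pairs joined different stages, so that they cannot decide whether a number marks a collection shared by control and TBE libraries. Control and TBE pairs of single stages were not examined on their own. Comparisons of promoters, repeats, GC content and motifs were not run.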
